A study of Mus musculus with 12 samples.

Results

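The genes described here are 9 epithelial repair and small proline-rich genes, found by their symbols among the 35791 genes counted in small bowel of male C57BL/6 mice. They are Sprr2a1, Sprr2a2, Sprr2a3, Sprr2b, Sprr1a, Ly6d, Ly6a, Clu and Anxa1. They were selected on expression results from these same libraries. Which contrast chose each gene is not recorded, so every contrast is taken as used, and their levels and fold changes are a description with no test. The study concerns adaptation of the bowel to ileocecal resection, the removal of the end of the ileum and the cecum, and its modification by 2'-fucosyllactose (2'-FL), a sugar of human milk. RNA was sequenced from 12 libraries in 4 groups of 3. Post 2'-FL and Post control were taken 8 weeks after resection with and without the supplement, and Pre 2'-FL and Pre control are labelled as taken before resection in the same arms. Mice underwent surgery at 8 to 10 weeks of age on day 0, when the supplement began in its arm at 2.5 g/L. All animals had a liquid diet after surgery before returning to chow. The labels contradict each other: a protocol places every collection after resection, and Pre 2'-FL is labelled as supplemented although the supplement began with surgery. Each library was placed by its own label. They name neither the bowel segment nor an unoperated group of the later age, so age, diet and segment cannot be told apart from resection.

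Small proline-rich (Sprr) proteins are cross-linked into the cornified envelope of skin and other squamous epithelia, and mouse Sprr2a is also made by intestinal epithelial cells, where bacteria induce it and where it acts against Gram-positive bacteria. Ly6a (Sca-1), Clu and Anxa1 are known from regenerating mouse gut, where injured epithelium takes on features of fetal epithelium. Clu marks the revival stem cell of irradiated mouse intestine, and the transcriptional coactivator YAP with its TEAD partners drives much of that program.

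Library totals ran from 5663275 to 9385266 counts, and 13154 genes had enough counts to be tested. Levels are in CPM, the count as a share of the TMM-scaled library total. Means carry the SD of the 3 libraries of a group. The 10 markers of intestinal epithelium were present throughout, with a summed level of 7248 to 12970 CPM in Post 2'-FL, 16850 to 17930 in Post control, 10350 to 12750 in Pre 2'-FL and 11220 to 16680 in Pre control. In most libraries gene levels followed transcript length. Spearman's rho across 12654 genes of length with a gene's level, taken against its own average, came to -0.441, -0.565 and -0.6 in Post 2'-FL, -0.0348, -0.207 and 0.355 in Post control, and between 0.263 and 0.497 in the 6 Pre libraries. Genes are not independent replicates, and these are descriptions. Sprr2a3, Sprr2b, Sprr1a, Ly6d and Ly6a have transcripts of 682 to 955 nt, among the shortest 5.14% of the tested genes. The members' changes within each arm are therefore also given below with length and GC content corrected. In bulk tissue, fewer cells of a type and less RNA per cell cannot be told apart.

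The Sprr2a copies lie side by side on mouse chromosome 3: Sprr2a1 (Entrez 20755) at chr3:92215835-92222491, Sprr2a2 (Entrez 100303744) at chr3:92250647-92257304 and Sprr2a3 (Entrez 100042514) at chr3:92285304-92289264, in GRCm38, the assembly named mm10 in the submitters' processing notes. Their coding sequences are shown because they set how far reads can be told apart. The coding sequences of Sprr2a1 and Sprr2a2 are identical over 252 bases. Sprr2a3 differs from them at 3 bases, G63A, G159T and A192T, counted from 1 at the A of the start codon with the Sprr2a1 base first, each at position 3 of a codon. Capitals mark these bases in the sequences, read from the GRCm38 coordinates of the GENCODE M21 annotation.
Sprr2a1 coding sequence, chr3:92219092-92219343, plus strand: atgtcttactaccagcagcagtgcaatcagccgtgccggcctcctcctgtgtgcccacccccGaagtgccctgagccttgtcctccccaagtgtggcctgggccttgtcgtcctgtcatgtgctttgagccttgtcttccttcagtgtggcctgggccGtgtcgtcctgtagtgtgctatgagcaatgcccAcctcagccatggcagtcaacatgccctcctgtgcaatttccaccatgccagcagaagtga
Sprr2a3 coding sequence, chr3:92288588-92288839, plus strand: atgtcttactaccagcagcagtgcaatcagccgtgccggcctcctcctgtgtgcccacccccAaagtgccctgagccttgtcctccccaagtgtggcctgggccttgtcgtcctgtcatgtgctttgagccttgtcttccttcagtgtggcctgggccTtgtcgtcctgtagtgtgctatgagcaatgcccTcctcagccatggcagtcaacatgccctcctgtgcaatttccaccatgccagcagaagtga

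The longest run of bases shared by these coding sequences is 95. Of the 673 stretches of 50 bases in the shorter Sprr2a2 transcript (722 nt), 100% are also in the Sprr2a1 transcript. Of the 633 in the shorter Sprr2a3 transcript (682 nt), 300 (47.4%) are. The counts of Sprr2a1 and Sprr2a2 were nearly equal in every library, with a ratio of 0.988 to 1.02. With coding sequences this alike, the separate entries cannot tell Sprr2a1 from Sprr2a2, and Sprr2a1, Sprr2a2 and Sprr2a3 were therefore also summed.

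Summed Sprr2a was higher after resection in both arms. It reached 9171, 7960 and 10444 CPM in Post 2'-FL 1 to 3 and 3801, 14466 and 5652 CPM in Post control, against 3047, 1947 and 1767 CPM in Pre 2'-FL and 1314, 2001 and 995 CPM in Pre control. All 6 Post libraries lay above all 6 Pre libraries, and Post control 2 was the highest of all. Its log2 change was 2.03 ± 0.45 (SE) in Post 2'-FL against Pre 2'-FL and 2.47 ± 0.46 in Post control against Pre control, which are 4.08-fold and 5.55-fold. With length and GC corrected the changes were 1.56 ± 0.46 and 2.40 ± 0.47. That correction uses the annotated Sprr2a1 transcript of 3003 nt. With the shorter transcript of 722 nt in its place, a choice made after the data were seen, the corrected changes were 0.90 in the 2'-FL arm and 2.32 in the control arm.

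Sprr2a held a sizeable share of the counts. The sum made up 0.733%, 0.762% and 0.914% of the counts in Post 2'-FL and 0.395%, 1.39% and 0.605% in Post control, against 0.356%, 0.215% and 0.184% in Pre 2'-FL and 0.131%, 0.210% and 0.0971% in Pre control. Ranked by counts, Sprr2a1 was between rank 8 and rank 43 among all genes in the Post libraries and between rank 55 and rank 237 in the Pre libraries. Between the Post groups the sums overlapped: 9192 ± 1242 CPM in Post 2'-FL and 7973 ± 5699 CPM in Post control, a log2 difference of 0.21 ± 0.43 (SE), or -0.23 with the correction and -0.71 with the short transcript. Without Post control 2 this difference was 1.02, and the change in the control arm was 1.74. Before resection it averaged 2254 ± 693 CPM in Pre 2'-FL and 1437 ± 514 CPM in Pre control (log2 difference 0.65 ± 0.43).

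**Figure D1:**
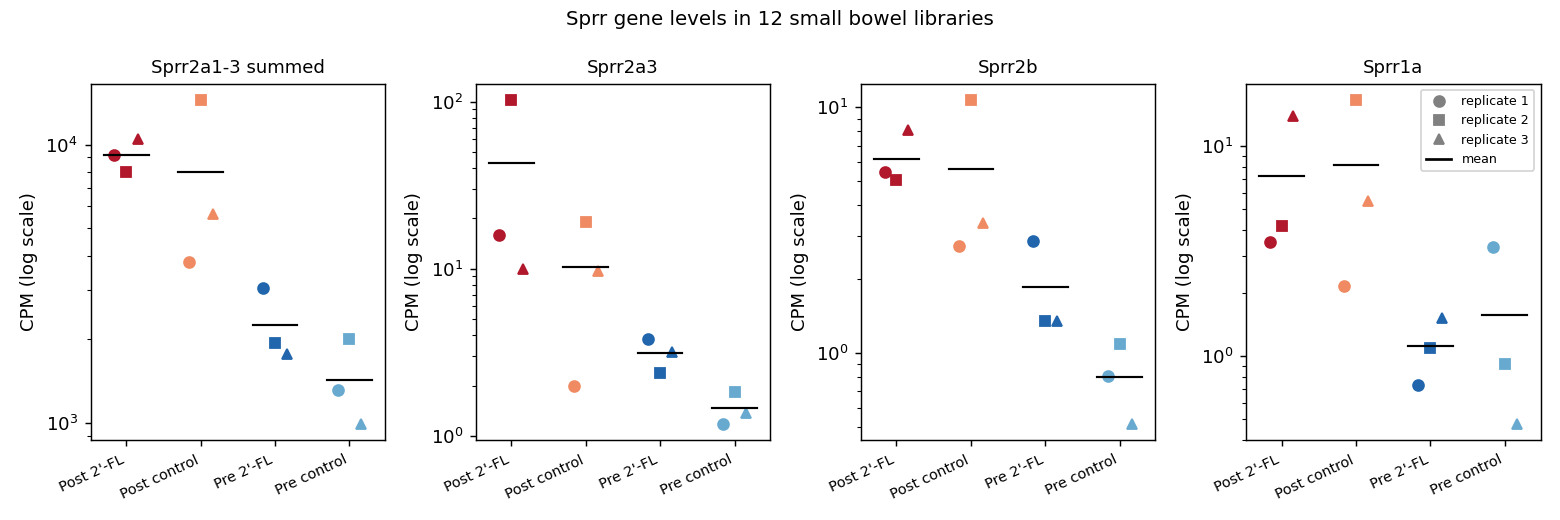
Levels in CPM (log axis) of summed Sprr2a1 to Sprr2a3, Sprr2a3, Sprr2b and Sprr1a in the 12 libraries by group, with symbols for replicates and lines for group means. Every Post library lies above every Pre library for the sum, and Post 2'-FL 2 stands far above the others for Sprr2a3 at 102.6 CPM.

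Sprr2a3, the copy with its own bases, was listed at much lower levels than its neighbours. It had 16.0, 102.6 and 9.93 CPM in Post 2'-FL and 2.00, 19.0 and 9.75 CPM in Post control, against 3.82, 2.36 and 3.20 CPM in Pre 2'-FL and 1.18, 1.83 and 1.37 CPM in Pre control. Post 2'-FL did not overlap Pre 2'-FL, and Post control did not overlap Pre control, but 1 library, Post 2'-FL 2, carried 666 counts. The log2 change was 3.76 ± 0.83 (SE) in the 2'-FL arm and 2.76 ± 0.89 in the control arm. Without Post 2'-FL 2 it was 2.02 in the 2'-FL arm, and the log2 difference of Post 2'-FL from Post control was 0.34 in place of 2.09. The changes in the arms differed by 1.00 (2'-FL minus control) with that library and by -0.74 without it. With length and GC corrected and every library kept, the change was 2.74 ± 0.885 (SE) in the 2'-FL arm and 2.68 ± 0.981 in the control arm. The corrected difference was 1.21 between the Post groups and 0.06 between the arms. Sprr2a3 counts were 0.0526% to 0.181% of summed Sprr2a in the other 11 libraries and 1.29% in Post 2'-FL 2. Whether these counts come from Sprr2a3 or from divided reads of its copies was not tested.

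Sprr2b (Entrez 20756, chr3:92316705-92318085), a related Sprr2 gene, was also higher after resection, at low counts. It had 5.44, 5.05 and 8.08 CPM in Post 2'-FL and 2.72, 10.7 and 3.38 CPM in Post control, against 2.87, 1.35 and 1.36 CPM in Pre 2'-FL and 0.805, 1.09 and 0.515 CPM in Pre control. Each Post group lay above its own Pre group. Its log2 change was 1.67 ± 0.51 in the 2'-FL arm (0.67 corrected) and 2.77 ± 0.56 in the control arm (2.63 corrected), where it was 1.96 without Post control 2. Sprr2b counts stayed between 0.0517% and 0.0942% of summed Sprr2a in every library, a 1.82-fold range, while the summed counts spanned 9.45-fold. Of the 715 distinct stretches of 50 bases in its transcript, 101 (14.1%) are also in the Sprr2a1 transcript. How many Sprr2b counts are divided reads of Sprr2a was not tested.

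**Figure D2:**
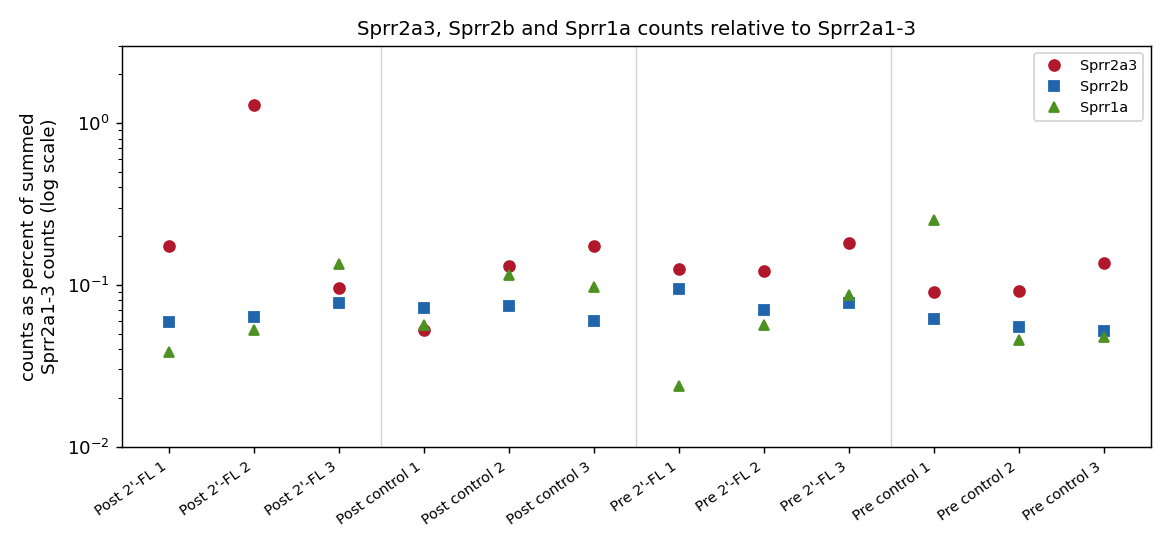
Counts of Sprr2a3, Sprr2b and Sprr1a as a percent of the summed Sprr2a1 to Sprr2a3 counts (log axis) in each of the 12 libraries, with grey lines between groups. Sprr2b keeps within 0.0517% to 0.0942%, Sprr2a3 reaches 1.29% in Post 2'-FL 2, and Sprr1a runs from 0.0238% to 0.252%.

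Sprr1a (Entrez 20753, chr3:92483954-92485881) encodes another precursor of the cornified envelope and shares no stretch of 50 bases with the Sprr2 transcripts examined. It had 3.51, 4.16 and 13.95 CPM in Post 2'-FL and 2.16, 16.6 and 5.51 CPM in Post control, against 0.725, 1.09 and 1.52 CPM in Pre 2'-FL and 3.31, 0.914 and 0.475 CPM in Pre control. The groups of the 2'-FL arm did not overlap. Those of the control arm did, through Pre control 1. The log2 change was 2.71 ± 0.83 (SE) in the 2'-FL arm and 2.36 ± 0.76 in the control arm, and 1.83 and 2.21 with the correction. Without Pre control 1 the change in the control arm was 3.47, and without Post control 2 it was 1.37. Without Post 2'-FL 3 the change in the 2'-FL arm was 1.82. Counts were few, from 4 to 91 in a library.

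The other Sprr genes were at or near 0. Of 17 Sprr entries in the files, 12 were not among the genes described here. Of these, 9 had 0 counts in all 12 libraries, and Sprr2f, Sprr2h and Sprr2k had 3.35 counts together. The markers of squamous epithelium were as scarce: 8 of 10 stayed under 1 CPM in every library, and Krt6a and Dsg3 were at 0. Their summed level was 1.69 to 4.55 CPM in Post 2'-FL and 1.10 to 2.47 CPM in Post control, against 0.781 to 2.84 CPM in Pre 2'-FL and 0.813 to 2.16 CPM in Pre control.

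The 250 bases before the start sites of Sprr2a1, Sprr2b and Sprr1a are shown because all 3 genes had higher means in each Post group than in its Pre group, although the control arm groups overlapped for Sprr1a. They come from RefSeq on GRCm38.p6. Capitals mark matches, on either strand, to the AP-1 motif TGANTCA and the TATA box TATAAA.
Sprr2a1 promoter, chr3:92215585-92215834, plus strand: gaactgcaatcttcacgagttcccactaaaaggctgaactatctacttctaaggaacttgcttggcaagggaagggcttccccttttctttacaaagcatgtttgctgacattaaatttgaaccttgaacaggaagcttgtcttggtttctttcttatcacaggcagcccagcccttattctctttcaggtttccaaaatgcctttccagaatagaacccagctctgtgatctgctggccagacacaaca
Sprr2b promoter, chr3:92316455-92316704, plus strand: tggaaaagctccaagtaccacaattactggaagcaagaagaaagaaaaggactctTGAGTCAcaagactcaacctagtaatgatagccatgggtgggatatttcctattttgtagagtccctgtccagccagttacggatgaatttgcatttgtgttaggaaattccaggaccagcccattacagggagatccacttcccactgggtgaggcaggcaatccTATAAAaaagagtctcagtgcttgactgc
Sprr1a promoter, chr3:92485882-92486131, minus strand: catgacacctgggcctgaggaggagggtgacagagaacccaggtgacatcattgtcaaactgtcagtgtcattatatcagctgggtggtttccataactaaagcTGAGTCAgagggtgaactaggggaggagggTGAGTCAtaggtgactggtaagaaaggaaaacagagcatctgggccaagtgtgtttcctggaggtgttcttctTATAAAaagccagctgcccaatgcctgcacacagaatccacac

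The RefSeq windows of Sprr2a1 and Sprr2a2, which reach 50 bases past the start, were identical over 300 bases, and that of Sprr2a3 held a run of 272 of them shifted by its annotated start. The longest run that Sprr2b shared with Sprr2a1 was 18 bases, and for Sprr1a it was 9. An AP-1 match lay at -195 in Sprr2b and at -146 and -116 in Sprr1a, with none in these letters for the Sprr2a copies. Of 32851 promoters, 6.75% held one. A TATAAA match lay at -29 in Sprr2b and at -43 in Sprr1a, and 12.4% of promoters held one. Of the other motifs searched, TTCNNNGAA (STAT, in 7.02% of promoters) matched in Sprr2a3 at -249 and GGAATG (TEAD, in 12.6%) in Anxa1 at -236. Ly6d, Ly6a and Clu were not looked at in this way.

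Clu (Entrez 12759, chr14:65968483-65981548), the secreted chaperone clusterin, was lower after resection in both arms. It had 11.6, 6.01 and 3.35 CPM in Post 2'-FL and 5.08, 4.94 and 7.62 CPM in Post control, against 66.6, 19.1 and 20.3 CPM in Pre 2'-FL and 56.6, 13.7 and 18.4 CPM in Pre control. All 6 Post libraries lay below all 6 Pre libraries, and Pre 2'-FL 1 and Pre control 1 were far above the other 4 Pre libraries. The 8 lymphocyte markers also summed highest in these libraries, at 205.9 CPM in Pre 2'-FL 1 and 144 CPM in Pre control 1, against 37.5 to 129.2 CPM in the other 10, and their part in Clu was not tested. The log2 change was -2.35 ± 0.60 (SE) in the 2'-FL arm and -2.30 ± 0.60 in the control arm, and -2.42 and -2.35 with length and GC corrected. Without Pre 2'-FL 1 the change was -1.44 in the 2'-FL arm, and without Pre control 1 it was -1.40 in the control arm. Clu has a longer transcript, of 1810 nt, and differed by 0.22 ± 0.64 between Post 2'-FL and Post control.

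Ly6d (Entrez 17068, chr15:74762056-74763567), a GPI-anchored surface protein of the Ly6 family, had its highest mean in Post 2'-FL and its lowest in Post control. It had 20.5, 7.24 and 9.30 CPM in Post 2'-FL and 4.47, 1.46 and 2.20 CPM in Post control, against 7.01, 2.66 and 5.93 CPM in Pre 2'-FL and 6.61, 4.37 and 7.49 CPM in Pre control. Post 2'-FL overlapped neither Post control nor Pre 2'-FL but reached into the range of Pre control with Post 2'-FL 2, and Post control overlapped Pre control through Post control 1. The log2 change was 1.23 ± 0.46 (SE) in the 2'-FL arm and -1.17 ± 0.49 in the control arm, a difference of 2.40 ± 0.67 between the changes. Corrected for length and GC, these were 0.22 ± 0.43, -1.22 ± 0.46 and 1.43 ± 0.63. Post 2'-FL exceeded Post control by 2.17 ± 0.48, or 1.28 with the correction. Without Post 2'-FL 1 the change in the 2'-FL arm was 0.66.

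Ly6a (Entrez 110454, chr15:74994877-74998031), the surface protein Sca-1, was lowest in Post control. It had 31.1, 27.4 and 25.1 CPM in Post 2'-FL and 14.9, 7.34 and 8.72 CPM in Post control, against 17.6, 39.2 and 35.8 CPM in Pre 2'-FL and 7.58, 27.1 and 37.6 CPM in Pre control. The Post groups did not overlap, and Pre control 1 fell within the range of Post control. The log2 change was -0.14 ± 0.44 (SE) in the 2'-FL arm and -1.22 ± 0.45 in the control arm, and Post 2'-FL exceeded Post control by 1.43 ± 0.46. With length and GC corrected these were -1.31 ± 0.42, -1.36 ± 0.43 and 0.42 ± 0.43. The correction thus gave Ly6a a change of about the same size in both arms.

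Ly6a is also made by endothelium. The 8 endothelial markers summed to 39.4, 50.1 and 64.2 CPM in Post 2'-FL and 78.4, 41.1 and 53.3 CPM in Post control, against 103.1, 207.5 and 259.1 CPM in Pre 2'-FL and 38.5, 157.1 and 228.3 CPM in Pre control. Of the 9 libraries outside Post 2'-FL, the 3 with the lowest sums had 7.34 to 8.72 CPM of Ly6a and the 3 with the highest had 35.8 to 39.2 CPM. The Post 2'-FL libraries had 25.1 to 31.1 CPM at sums as low as those of Post control. Neither these Ly6a levels nor the sums were corrected for length and GC, and Ly6a is among the shortest tested genes. With the correction Ly6a differed by 0.42 ± 0.43 (SE) between the Post groups. Of these 8 markers, 6 fell in Post 2'-FL against Pre 2'-FL (3 when corrected), where 30.0% of all genes were called lower, and 1 in Post control against Pre control (0 when corrected), where 6.33% were. The part of endothelium in the Ly6a levels was not tested.

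Anxa1 (Entrez 16952, chr19:20373434-20390671), annexin A1, a phospholipid-binding protein that dampens inflammation and aids mucosal repair, was highest in Post 2'-FL. It had 26.1, 17.2 and 13.95 CPM in Post 2'-FL and 8.78, 7.13 and 9.62 CPM in Post control, against 6.77, 10.2 and 12.1 CPM in Pre 2'-FL and 2.80, 10.4 and 12.8 CPM in Pre control. Post 2'-FL lay above every other library, and the other groups overlapped. The log2 change was 0.99 ± 0.41 (SE) in the 2'-FL arm and -0.02 ± 0.41 in the control arm, with Post 2'-FL above Post control by 1.16 ± 0.41. With length and GC corrected these were -0.07, -0.25 and 0.29. The 8 stromal markers, Dcn among them, summed to 504.7, 304 and 368.9 CPM in Post 2'-FL and 195.9, 123.9 and 221.6 CPM in Post control, against 292.5, 507.6 and 429.5 CPM in Pre 2'-FL and 123.7, 334.5 and 579.7 CPM in Pre control. The stromal sum did not overlap between the Post groups either. Nor did that of the 10 neutrophil and monocyte markers, at 510.6, 237.9 and 176.6 CPM in Post 2'-FL and 128.8, 117.4 and 106.6 CPM in Post control, against 193.2, 309.6 and 309.6 CPM in Pre 2'-FL and 215.9, 230.0 and 335.4 CPM in Pre control. Of these 10, Ly6g and Mpo were at 0 in every library. Most of the sum was Lyz2, a lysozyme of macrophages and monocytes, at 86.0 to 486.2 CPM, and none of the others passed 14.6 CPM. Of the 4 that could be tested, 1 was called higher in Post 2'-FL than in Post control (0 when corrected), where 18.8% of all genes were. Their median log2 difference was -0.02. The part of these cells in Anxa1 was not tested.

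**Figure D3:**
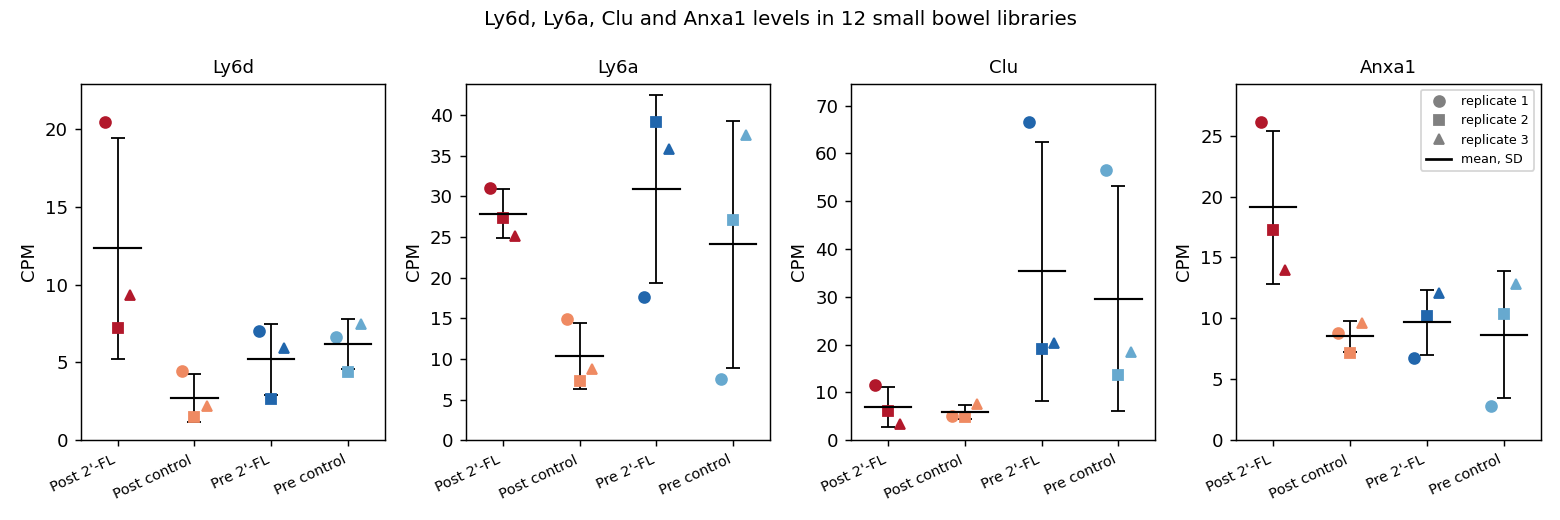
Levels in CPM of Ly6d, Ly6a, Clu and Anxa1 in the 12 libraries by group, with symbols for replicates, lines for means and bars for the SD. Clu reaches at most 11.6 CPM in a Post library and at least 13.7 CPM in a Pre library, and Ly6d and Anxa1 peak in Post 2'-FL.

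**Figure D4:**
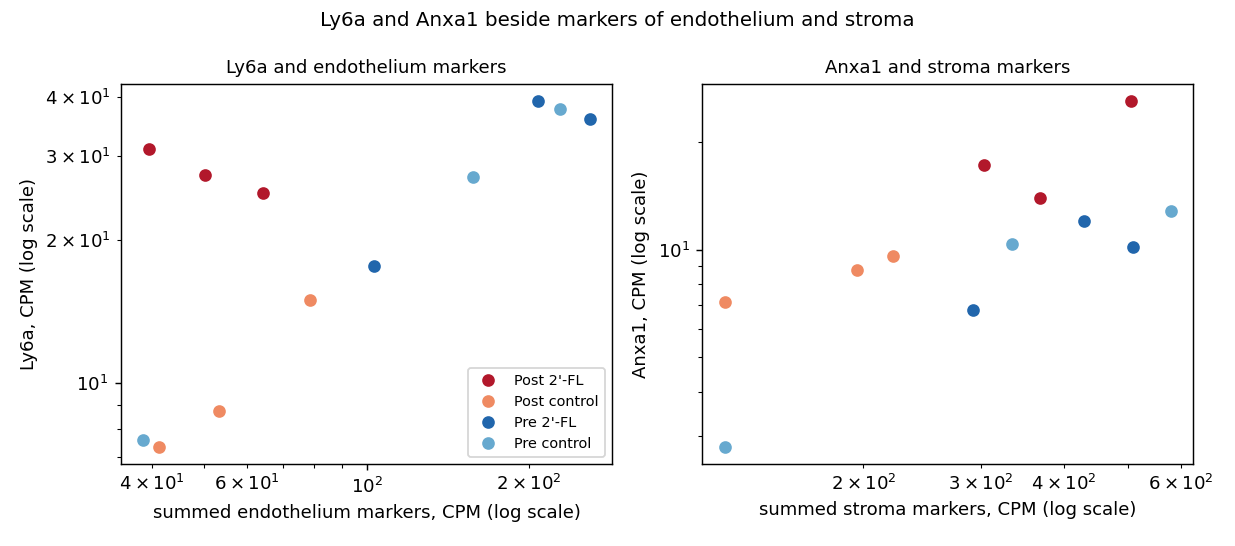
Ly6a against the summed endothelial markers and Anxa1 against the summed stromal markers, all in CPM on log axes, with 1 point per library and colours for groups. The Post 2'-FL libraries, in dark red, have 25.1 to 31.1 CPM of Ly6a at a low endothelial sum of 39.4 to 64.2 CPM. The values are not corrected for length and GC.

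Set side by side, the log2 changes of the 5 Sprr genes were above 0 in both arms, with overlapping groups for Sprr1a in the control arm. Those of Clu were below 0 in both, and Ly6d, Ly6a and Anxa1 had higher levels in each Post 2'-FL library than in any Post control library. At an adjusted p under 0.05 (edgeR's quasi-likelihood test, Benjamini-Hochberg over all genes tested), 6 of the 9 were called higher and 1 lower in Post 2'-FL against Pre 2'-FL, where 25.3% and 30.0% of all tested genes were. In Post control against Pre control 3 were called higher (Sprr2a1, Sprr2a2 and Sprr2b) and 1 lower (Clu), beside 4.42% and 6.33% of all genes. In Post 2'-FL against Post control 4 were called higher, beside 18.8% of all genes (19.3% were called lower). For the difference between the arms Ly6d was called higher, beside 7.47% of all genes called higher and 8.03% lower. Groups did not overlap for 7 genes higher and 1 lower in the 2'-FL arm (27.9% and 33.7% of all genes), 4 higher and 1 lower in the control arm (17.3% and 17.6%), 3 higher in Post 2'-FL against Post control (25.2%, with 25.4% lower) and 2 higher in Pre 2'-FL against Pre control (4.31%, with 4.91% lower). Since results chose the members, these counts are not evidence. Sprr2a1 and Sprr2a2 enter every count separately, although their entries cannot be told apart. Whether Sprr2b and Sprr2a3 counts are divided reads of them was not tested, so the 9 may not be 9 separate signals. Corrected for length and GC, 3 were called higher and 2 lower in the 2'-FL arm, beside 35.9% of all genes called either way (2778 higher and 1944 lower). In the control arm 3 were then called higher and 1 lower, beside 12.6% (1000 higher and 658 lower). After correction 0 of the 9 were called in Post 2'-FL against Post control, beside 21.7% of all genes either way. For the difference between the arms 0 of the 9 and 0 of all genes were then called, with 2636 genes at an unadjusted p under 0.05. The median log2 change of the 9 was 1.67 in the 2'-FL arm, beside -0.13 over all genes, and 2.36 in the control arm, beside -0.05. With the correction it was 0.67 in the 2'-FL arm, beside 0.02, and 2.205 in the control arm, beside 0.05.

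**Figure D5:**
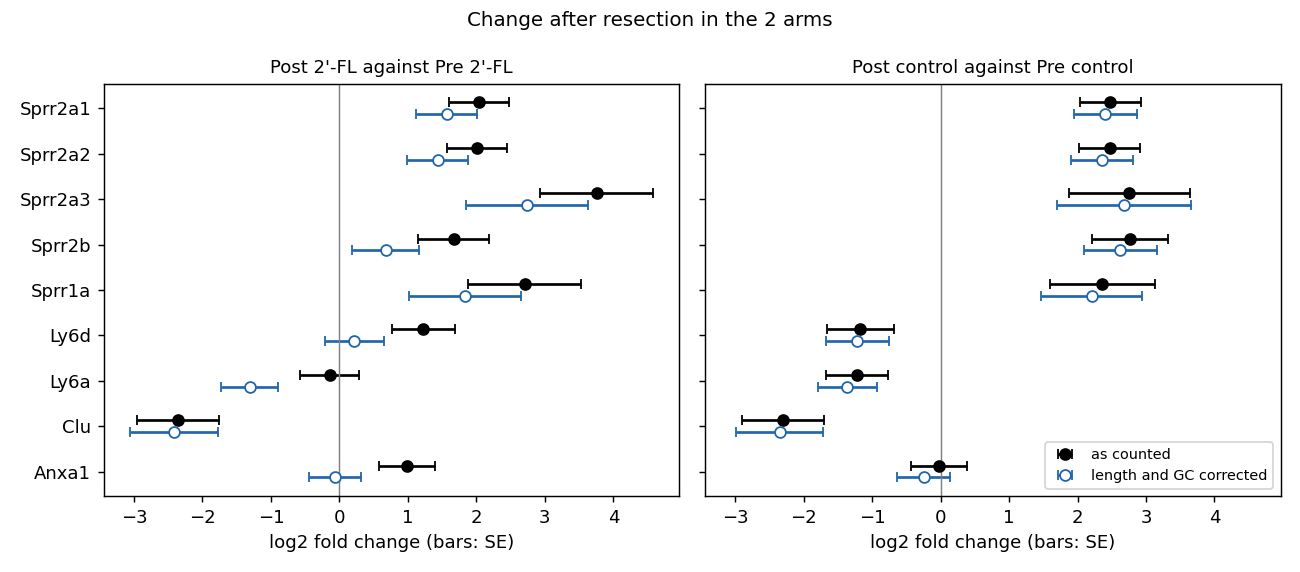
Log2 fold change of the 9 genes in Post 2'-FL against Pre 2'-FL (left) and Post control against Pre control (right), with bars for the SE, as counted (filled) and with length and GC corrected (open). In the 2'-FL arm the correction moves the short genes and Anxa1 to the left, Ly6a from -0.14 to -1.31, and in the control arm the values change little.

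Expressed per kilobase of transcript, so that genes can be compared, the levels kept a wide order. In Post 2'-FL summed Sprr2a stood at 12730 CPM per kilobase on the short transcript, or 3061 on the annotated one, Ly6a at 29.2, Ly6d at 16.6, Anxa1 at 11.4, Sprr1a at 8.94, Sprr2b at 7.89 and Clu at 3.85. In Pre control summed Sprr2a stood at 1990 or 478.5, Ly6a at 25.2, Clu at 16.3, Ly6d at 8.27, Anxa1 at 5.18, Sprr1a at 1.94 and Sprr2b at 1.02. Among the genes listed, Clu was the lowest in Post 2'-FL, while in Pre control only summed Sprr2a and Ly6a were above it. Clu was also the lowest of them in Post control, at 3.25. In Pre 2'-FL, at 19.5, it again stood below only summed Sprr2a and Ly6a. These values do not correct for the length trend, which ran in opposite directions in Post 2'-FL and the Pre libraries.

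The genes whose log2 level was most like that of a member over the 12 libraries were found among 10128 genes with a mean of at least 5 CPM. The libraries share depth and the length trend, and the correlations are a description. For summed Sprr2a they were Insig2, Sec22b and Hsd17b6 (Pearson's r = 0.964, 0.962 and 0.960), for Sprr1a Vapa, Lurap1l and Tmem19 (0.912, 0.901 and 0.899), and for Ly6d N6amt1, Ezh2 and Tusc3 (0.913, 0.910 and 0.906). For Ly6a they were Eltd1, Lepr and Cxcl12 (0.971, 0.968 and 0.963), for Clu Ppargc1a, Wdfy4 and Swap70 (0.961, 0.939 and 0.936), and for Anxa1 Dpt, Dcn and Pdpn (0.916, 0.911 and 0.909). Eltd1 is an endothelial receptor, and Dpt and Dcn are matrix genes of fibroblasts.

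Other genes of these families and programs were taken from 5 lists, with 86 genes, of which 85 are in the files and 56 could be tested. They do not contain the 9 members, and they were tested with edgeR's quasi-likelihood test and Benjamini-Hochberg adjustment over all 13154 genes. The lists too were chosen with earlier results of these data known, which limits what their counts and p-values can show. In Post 2'-FL against Pre 2'-FL 15 were higher and 23 lower, beside 25.3% and 30.0% of all genes. When corrected 7 were higher and 15 lower, beside 2778 higher and 1944 lower of all 13154 genes (35.9% either way). Of these 7, Anxa13 had no matched transcript length and stayed uncorrected. In Post control against Pre control 4 were higher and 8 lower, beside 4.42% and 6.33%. When corrected 3 were higher and 6 lower, beside 1000 and 658 of all genes (12.6% either way). In Post 2'-FL against Post control 6 were higher and 10 lower, beside 18.8% and 19.3%. When corrected 0 were higher and 10 lower, beside 1360 and 1498 of all genes (21.7% either way). Between the Pre groups 0 passed by edgeR and 0 by DESeq2, with 6 at an unadjusted p under 0.05, beside 0.0152% of all genes called lower. The median log2 change over the 56 was -0.62 in the 2'-FL arm and -0.26 in the control arm, or -0.13 and -0.08 when corrected.

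Of the cornified envelope list, 6 genes could be tested, and in the 2'-FL arm 3 rose and 3 fell, beside 25.3% and 30.0% of all genes. Cstb, a cysteine protease inhibitor, stood at 88.4 ± 22.5 CPM in Post 2'-FL and 35.5 ± 1.41 CPM in Pre 2'-FL, a log2 change of 1.32 ± 0.21 (SE, adjusted p = 0.000191) that was -0.06 after correction. S100a10, the partner of annexin A2, rose by 1.62 ± 0.28 (adjusted p = 0.000284; 0.48 corrected) and in the control arm by 0.91 ± 0.27 (adjusted p = 0.0462; 0.78 corrected, no longer called). The transglutaminase gene Tgm2 fell by 1.39 (adjusted p = 0.000533) and the scaffold gene Evpl fell by 1.87 (adjusted p = 0.000723), with corrected values of -0.52 and -0.22. Tgm1 and Tgm3, also on this list, had too few counts to be tested, reaching at most 0.930 and 0.156 CPM. With the correction 0 of the 6 were called in the 2'-FL arm, with 1 at an unadjusted p under 0.05. Cstb was also higher in Post 2'-FL than in Post control, by 1.16 ± 0.21 (adjusted p = 0.00117), which turned to -0.08 after correction. Evpl was lower in Post 2'-FL than in Post control, at -2.09 (adjusted p = 0.00101), and stayed so when corrected, at -1.05 (adjusted p = 0.024).

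Of the 23 tested genes of the fetal-like and revival list, 10 rose and 5 fell in the 2'-FL arm, beside 25.3% and 30.0% of all genes. In the control arm 2 rose and 3 fell, beside 4.42% and 6.33%. When corrected 6 rose and 5 fell in the 2'-FL arm, beside 2778 and 1944 of all 13154 genes, and 2 and 2 in the control arm, beside 1000 and 658. Between the Post groups 4 were higher and 1 lower in Post 2'-FL, beside 18.8% and 19.3%. When corrected 0 were higher and 3 lower, beside 1360 and 1498. S100a6, a calcium-binding protein, stood at 171 ± 20.8 CPM in Post 2'-FL and 132.5 ± 48.7 CPM in Post control, against 42.3 ± 4.34 CPM in Pre 2'-FL and 59.8 ± 10.2 CPM in Pre control. Its log2 change was 2.02 ± 0.26 (adjusted p = 5.49e-05; 1.04 corrected) and 1.15 ± 0.25 (adjusted p = 0.0153; 1.02 corrected), and both remained past the threshold when corrected. The actin-binding thymosins rose in the 2'-FL arm, Tmsb10 by 1.79 ± 0.25 (adjusted p = 8.81e-05; 1.03 corrected) and Tmsb4x by 1.45 ± 0.24 (adjusted p = 0.000253; -0.02 corrected). Il33, an alarmin cytokine, fell in both arms. The fall was 0.85 in the 2'-FL arm (adjusted p = 0.0106, and -1.46 corrected) and 1.48 in the control arm (adjusted p = 0.00609; -1.59 corrected). Il33 was higher in Post 2'-FL than in Post control by 1.10 ± 0.26 (adjusted p = 0.00508; 0.56 corrected, no longer called). The keratin gene Krt7 fell by 0.86 in the control arm (adjusted p = 0.02; -0.58 corrected, no longer called). In the 2'-FL arm it fell by 0.59 (adjusted p = 0.0253, and 0.23 corrected, no longer called). In Post 2'-FL against Post control Tmsb10 was higher by 1.16 ± 0.25 (adjusted p = 0.00303; 0.50 corrected, no longer called).

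Msln belongs to this list and also marks mesothelium, the lining of the bowel's outer surface. It averaged 6.32 ± 3.56 CPM in Post 2'-FL and 3.25 ± 1.93 CPM in Post control, against 0.121 ± 0.209 CPM in Pre 2'-FL and 0.170 ± 0.294 CPM in Pre control (adjusted p = 0.000385 in the 2'-FL arm and 0.0148 in the control arm, and 0.00089 and 0.0134 corrected). With 3 and 4 counts in all in the Pre groups, no fold is given. The 6 mesothelial markers summed to 30.1 to 40.4 CPM in Post 2'-FL and 20.0 to 32.4 CPM in Post control, against 8.28 to 11.7 CPM in Pre 2'-FL and 8.52 to 9.36 CPM in Pre control. Of the 5 that could be tested, 5 rose in the 2'-FL arm and 3 in the control arm, beside 25.3% and 4.42% of all genes. Upk3b averaged 5.71 CPM in Post 2'-FL and 4.69 CPM in Post control, against 0.0521 CPM in Pre 2'-FL and 0.0792 CPM in Pre control (adjusted p = 3.94e-05 and 0.000965). The part of mesothelium in Msln was not tested.

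Of 13 tested YAP and TEAD targets, 9 fell and 0 rose in the 2'-FL arm, where 30.0% of all genes were called lower, with a median log2 change of -1.51 beside -0.13 over all genes. When corrected, 3 of the 13 fell and 0 rose, beside 1944 lower and 2778 higher of all 13154 genes. The corrected median was -0.44, beside 0.02 over all genes. In the control arm 3 fell, beside 6.33% of all genes. These were Amotl2, the receptor kinase gene Axl, at -1.32 (adjusted p = 0.0209; adjusted p = 0.0332 corrected) and Arhgef17, at -1.61 (adjusted p = 0.038; -1.02 corrected, no longer called). Amotl2, a junction protein that binds YAP, stood at 4.38 ± 1.46 CPM in Post 2'-FL and 9.16 ± 2.67 CPM in Post control, against 20.7 ± 1.72 CPM in Pre 2'-FL and 19.5 ± 5.10 CPM in Pre control. It fell by 2.22 (adjusted p = 6.73e-05; -1.14 corrected, adjusted p = 0.013) in the 2'-FL arm and by 1.11 (adjusted p = 0.0241; -0.77 corrected, no longer called) in the control arm. Its relative Amotl1 fell by 2.29 in the 2'-FL arm (adjusted p = 0.000169; -0.89 corrected, no longer called), the phosphatase gene Ptpn14 by 2.29 (adjusted p = 0.00034; -0.73 corrected, no longer called) and Dlc1 by 2.51 (adjusted p = 0.00043; -1.35 corrected, adjusted p = 0.0277). Ctgf and Cyr61, the secreted proteins most used as YAP readouts, had changes of 0.41 ± 0.54 (adjusted p = 0.534) and 0.02 ± 0.45 (adjusted p = 0.974) in the 2'-FL arm. They were picked out after their values were seen. Ctgf averaged 8.24 ± 3.05 CPM in Post 2'-FL and 3.06 ± 0.924 CPM in Post control, without overlap. Cyr61 averaged 3.89 ± 1.15 CPM and 3.58 ± 1.24 CPM in these groups. In Post 2'-FL against Post control 6 of 13 were lower, beside 19.3% of all genes. With the correction 1 was, Wwc1, a regulator of the Hippo pathway, at -1.31 (adjusted p = 0.0148; 0.00224 as counted). Crim1, Amotl2 and Amotl1 were lower there at -1.11, -1.03 and -1.08 (adjusted p = 0.00497, 0.0168 and 0.0322), and none of these 3 was called when corrected.

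Of 7 tested relatives of Ly6a and Ly6d, Ly6g6c stood apart. It averaged 0.331 ± 0.247 CPM in Post 2'-FL and 5.84 ± 3.99 CPM in Post control, against 0.173 ± 0.182 CPM in Pre 2'-FL and 0.161 ± 0.198 CPM in Pre control. Post control exceeded Pre control by a log2 change of 5.06 ± 0.77 (adjusted p = 0.0029) and Post 2'-FL was lower than Post control, at -3.98 ± 0.74 (adjusted p = 0.00133), with corrected values of 4.92 and -4.55. Ly6g6c had 114 counts in Post control and 4 to 6 in each other group. Ly6e fell by 1.25 in the 2'-FL arm (adjusted p = 0.00288; -1.09 corrected, adjusted p = 0.00572). Lynx1 fell by 0.95 (adjusted p = 0.0116) and Lypd8, a colonic barrier protein, rose by 0.76 ± 0.28 (adjusted p = 0.0314) in the 2'-FL arm, and the correction turned them to 0.01 and -0.12. Gpihbp1, the endothelial carrier of lipoprotein lipase, was higher in Post 2'-FL than in Post control by 1.31 ± 0.45 (adjusted p = 0.0325; 0.59 corrected, no longer called).

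Of 8 tested annexins other than Anxa1, 2 rose and 4 fell in the 2'-FL arm, beside 25.3% and 30.0% of all genes. Anxa5 averaged 14.5 ± 1.32 CPM in Post 2'-FL and 15.6 ± 3.61 CPM in Post control, against 30.3 ± 2.24 CPM in Pre 2'-FL and 27.5 ± 7.80 CPM in Pre control. It fell by 1.06 in the 2'-FL arm (adjusted p = 0.00168; -1.49 corrected) and by 0.81 in the control arm (adjusted p = 0.0373; -0.87 corrected), and was called with the correction in both. Anxa13, an annexin of the intestine and kidney, rose by 0.96 ± 0.26 in the 2'-FL arm (adjusted p = 0.0067). It had no matched transcript length and so was left uncorrected. Anxa6 and Anxa11 fell there by 1.28 and 0.88 (adjusted p = 0.00275 and 0.0113; -1.06 and -0.66 corrected). Anxa7 fell by 0.87 in the control arm (adjusted p = 0.00869; -0.79 corrected). In Post 2'-FL against Post control Anxa11 was lower, at -1.11 (adjusted p = 0.00511; -0.96 corrected), and Anxa3 was higher by 0.78 ± 0.28 (adjusted p = 0.039; 0.12 corrected, no longer called).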

How the data were processed

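The authors deposited estimated counts (expected counts) per gene for 12 libraries, 1 file each, not normalised, per the file headers, which name them raw. The submitters' processing notes name mm10 and DESeq; the aligner, counting program and strand are not given in the sources used here. Per the labels' protocols, libraries were made with a TruSeq kit from about 1.5 µg RNA and sequenced on a HiSeq 2000. Between 11.7% and 15.9% of entries were fractional (further than 0.001 from a whole number), so reads had been divided between places. Entries of a gene listed more than once were summed (36186 entries, 35791 genes) and rounded.

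Genes were kept with filterByExpr (13154) and fitted in R 4.3.3 with edgeR 4.0.16 (TMM, quasi-likelihood, 1 mean per group, 8 residual degrees of freedom, biological coefficient of variation 0.238), two-sided, with Benjamini-Hochberg adjustment over all genes. The threshold for a call was an adjusted p of 0.05. An SE is the log2 fold change over the square root of F. P-values measure spread between libraries. For the correction, natural splines (4 degrees of freedom) on length and GC of the longest RefSeq-matched GENCODE transcript (12654 of the genes; the others stayed uncorrected) entered as offsets in each library. The comparisons share groups. DESeq2 1.42.0, no count filter, the replicate block and leaving out each library were alternatives. Named companions are the up to 4 genes per list with the smallest adjusted p under 0.05. Sequences were handled in Python 3.11.15. The members and lists were chosen with earlier results of these data known. One of the named companions is not reported here.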

Additional observations from a re-analysis of the deposited data

Results flagged for a closer look

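For 6 listed genes the change in the 2'-FL arm differed from that in the control arm by edgeR's interaction test. As log2 differences (2'-FL arm minus control arm) these were 1.34 for Cstb (adjusted p = 0.0162), 1.27 for Tmsb10 (adjusted p = 0.0292), 0.837 for Anxa7 (adjusted p = 0.0314), -1.54 for Evpl (adjusted p = 0.044), -1.78 for Amotl1 (adjusted p = 0.028) and -1.81 for Wwc1 (adjusted p = 0.0421). Anxa7 averaged 85.8 ± 6.93 CPM in Post 2'-FL and 70.6 ± 6.86 CPM in Post control, against 87.6 ± 2.70 CPM in Pre 2'-FL and 128.9 ± 20.5 CPM in Pre control (SD, n = 3 each). With length and GC corrected the difference was 0.90 for Anxa7 (adjusted p = 0.0695), -1.07 for Wwc1, -0.88 for Amotl1, 0.51 for Tmsb10, -0.42 for Evpl and 0.05 for Cstb, and 0 of the 56 listed genes were called, with 9 at an unadjusted p under 0.05.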

How the results depend on the processing

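Correcting for transcript length and GC lowered the calls in the 2'-FL arm, between the Post groups and for the difference between the arms, but not in the control arm, where 1658 genes were called in place of 1415, or between the Pre groups, with 2 each time. The listed genes called then numbered 22 in place of 38 in the 2'-FL arm, 10 in place of 16 between the Post groups and 0 in place of 6 for the difference between the arms. All genes called numbered 4722 in place of 7274, 2858 in place of 5011 and 0 in place of 2038, for which 2636 stayed at an unadjusted p under 0.05. With the replicate block added to the correction they were 22, 9 and 0 of the listed genes and 4610, 2721 and 0 of all genes. By DESeq2 11 listed genes were called for the difference between the arms, and between the Pre groups 24 genes were called by DESeq2 and 12 with no filter on low counts, in place of 2. With no such filter Anxa7 was not called for the difference between the arms (adjusted p = 0.062), nor Anxa3 and Gpihbp1 between the Post groups (adjusted p = 0.0724 and 0.0573). With the correction, and with block and correction, the sign turned for Cstb (-0.06192 and -0.0567 in the 2'-FL arm, -0.08117 and -0.0861 between the Post groups), Tmsb4x (-0.01584 and -0.02141), Lynx1 (0.01241 and 0.007296) and Lypd8 (-0.1165 and -0.09183), the last 3 in the 2'-FL arm. With the short Sprr2a2 transcript, an alternative chosen after seeing the data, the log2 change of summed Sprr2a was 0.9039 in the 2'-FL arm, the Post difference -0.7132 and the difference between the arms -1.413.

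Leaving out 1 library at a time, the change of summed Sprr2a ran from 1.883 to 2.378 in the 2'-FL arm and from 1.737 (without Post control 2) to 2.821 in the control arm, its difference from -0.06656 to 1.018 between the Post groups and from 0.3734 to 0.9617 between the Pre groups, and the difference between the arms from -0.7069 to 0.3772 (without Post control 2). Listed genes called ran from 31 to 38, 4 (without Post control 1) to 18 (without Pre control 1), 9 (without Post 2'-FL 1) to 20, 0 to 0 and 1 (without Post control 3) to 14 (without Post 2'-FL 2), in the order of 2'-FL arm, control arm, Post, Pre and difference between the arms. All genes called ran from 6215 to 7375, 265 (without Post control 2) to 1843, 3279 to 5384, 0 to 17 and 424 to 3024 in the same order.

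Most libraries with the same replicate number did not deviate together, with r from -0.225 to 0.22 and 4 of 12 libraries closest to their own number. The exception was Pre 2'-FL 1 with Pre control 1, at r = 0.419. Whether that pair shares more than a number was not tested. With the replicate block 38, 12, 18, 0 and 5 listed genes and 7146, 1363, 4836, 3 and 1574 genes in all were called, in that order; Arhgef17 in the control arm (adjusted p = 0.0578) and Evpl and Wwc1 for the difference between the arms (adjusted p = 0.0669 and 0.0592) were not. With 3 libraries a group and few counts for Sprr1a, Sprr2b and Sprr2a3, depth limits what can be said of them.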

Other observations

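Among the growth factors of the fetal-like list, which were picked out after their values were seen, the EGF receptor ligands Areg and Ereg rose in the 2'-FL arm. Areg averaged 11.6 ± 11.7 CPM in Post 2'-FL and 5.32 ± 0.957 CPM in Post control, against 2.47 ± 0.694 CPM in Pre 2'-FL and 5.25 ± 2.31 CPM in Pre control (SD, n = 3 each), with a log2 change of 2.21 ± 0.59 (edgeR, adjusted p = 0.00595) in the 2'-FL arm and 0.04 ± 0.55 (adjusted p = 0.972) in the control arm. The Post 2'-FL libraries ran from 4.54 to 25.1 CPM, and 1 library carried their mean. Ereg averaged 22.8 ± 11.2 CPM in Post 2'-FL and 13.8 ± 4.48 CPM in Post control, against 6.24 ± 1.26 CPM in Pre 2'-FL and 15.0 ± 12.1 CPM in Pre control, with changes of 1.87 ± 0.52 (adjusted p = 0.00795; 1.68 corrected, adjusted p = 0.027) and -0.12 ± 0.49 (adjusted p = 0.893). Corrected for length and GC, Areg changed by 1.23 in the 2'-FL arm (adjusted p = 0.132). Cldn4, a tight junction gene, averaged 147.7 ± 58.1 CPM in Post 2'-FL and 204.8 ± 69.7 CPM in Post control, against 49.0 ± 21.2 CPM in Pre 2'-FL and 86.0 ± 38.3 CPM in Pre control, with a change of 1.59 ± 0.40 in the 2'-FL arm (adjusted p = 0.00408; 1.53 corrected, adjusted p = 0.00748) and 1.25 ± 0.39 in the control arm (adjusted p = 0.0543), where the groups did not overlap. The difference between the arms was not called for Areg (adjusted p = 0.0793) or Ereg (adjusted p = 0.0714).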
